A study of Mus musculus with 6 samples.

Results

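The genes described here encode potassium, calcium and ClC chloride channels and the subunits of GABA-A receptors. They were taken by gene symbol as every row of both count tables named *Kcn*, *Cacn*, *Clcn* or *Gabr* in the usual form of these families, leaving out the antisense transcript *Kcnq1ot1*. This gave 145 of 23420 genes. RNA had been sequenced from the laser-microdissected luminal layer of the mouse uterus and from blastocysts, collected at 8 pm on day 4 of pregnancy, when blastocysts are about to attach. The study asked what changes in the epithelium and the blastocyst when the cytokine Lif (leukemia inhibitory factor) is missing from the epithelium. It also asked what changes when recombinant Lif (rLif) is given back.

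In each tissue there were 3 groups of 1 library. Control females were *Lif*-floxed/floxed without Cre and received PBS. *Lif* eKO females were *Lif*-floxed/floxed and *Ltf*-Cre/+, a Cre active in the uterine epithelium, and also received PBS. The rescued females were *Lif* eKO and were given rLif by injection, 20 µg per head each at 10 am and again at 6 pm, and were dissected 2 h after the second dose. Blastocysts of all 3 groups were labelled *Lif*-floxed/+, so the embryos kept an intact allele. RNA of several samples was pooled for each library, so no difference has a replicate check, no p-value is given, and intervals cover counting error only.

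Values are given throughout in the order control, eKO, eKO with rLif. Luminal libraries held 23850565, 28460465 and 27809527 counts, and blastocyst libraries 18996158, 19638852 and 19417359. The targeted gene did not follow the luminal labels. *Lif* was counted 28 times in the library labelled eKO (0.975 CPM, counts scaled to a common library size) and 0 times in those labelled control and eKO with rLif. Gene-level counts do not tell whether these reads lay in the floxed exons. The paper places Lif before attachment in the uterine glands, and the deletion in eKO leaves stromal Lif in place. The part of glands and stroma in these counts was not tested. Luminal groups are therefore called by their labels, and each direction below is between labelled libraries. Blastocysts had 1447, 1736 and 1250 *Lif* counts.

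Ion channels set the membrane potential of a cell and carry the ions that water follows across an epithelium. Potassium channels hold the potential negative and recycle the potassium brought in by the sodium-potassium pump. Chloride channels move the main anion of secretion, calcium channels turn depolarization into a calcium signal, and GABA-A receptors are chloride channels opened by GABA. In the uterus the luminal epithelium secretes and absorbs the fluid around the blastocyst, and in the blastocyst the trophectoderm pumps the fluid that fills the cavity.

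Channel genes made up a small part of both transcriptomes. Their share of all luminal counts was 0.15%, 0.14% and 0.153%, and of all blastocyst counts 0.0733%, 0.0819% and 0.0685%. At least 10 counts over the 3 libraries were found for 91 of the 145 in the luminal layer (62.8%, against 67% of all genes) and for 62 in blastocysts (42.8%, against 63.5%). Both tissues passed that limit for 50 members, the luminal layer alone for 41, blastocysts alone for 12 and neither for 42. In 18 members all 6 libraries were at 0. These included *Gabra5* and *Gabra6*, alpha subunits of brain receptors, and *Kcnq3*, *Kcna2* and *Kcna4*, which are potassium channels of neurons and muscle. The members that passed were mostly rare, with a median of 77 summed counts in the luminal layer against 1180 for all genes tested, and of 58 against 1084 in blastocysts.

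Levels were compared between genes as CPM per kilobase of exon, scaled by TMM within each tissue. *Kcnk1*, which encodes a tandem-pore potassium channel, was the channel gene of highest level in the luminal layer, at 389, 390 and 527 CPM per kilobase. It alone took 63.2%, 64.6% and 74.4% of all channel counts there. *Kcne3*, a small auxiliary subunit that keeps Kcnq1 channels open in other epithelia, was second at 51.5, 52.5 and 47.2. These high levels hardly differed between the libraries labelled control and eKO. The log2 ratio was 0.00 for *Kcnk1* (95% interval -0.02 to 0.03) and 0.03 for *Kcne3* (-0.06 to 0.11). With rLif, *Kcnk1* was higher than in control by a log2 ratio of 0.44 (0.41 to 0.46).

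The next levels in the luminal layer belonged to several families. *Clcn4-2* and *Clcn3*, chloride-proton exchangers of endosomes, had 13.3, 13.5 and 11.1 and 13.0, 9.61 and 12.3 CPM per kilobase. *Gabrp*, the pi subunit of GABA-A receptors, had 23.2, 0 and 10.8, and *Kcnj13*, an inward rectifier of secretory epithelia, had 4.46, 22.3 and 6.12. These 2 genes spread over the libraries far more than the others of the leading 10. *Cacnb3*, a beta subunit of calcium channels, followed at 8.56, 6.48 and 3.99. The lysosomal exchanger gene *Clcn7* had 5.89, 5.20 and 6.75, the acid-sensitive tandem-pore channel gene *Kcnk5* had 2.66, 6.16 and 2.11, and *Kcnj8*, a pore of ATP-sensitive potassium channels, had 3.26, 4.77 and 2.62.

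Blastocysts had another order. *Cacnb3* was highest at 53.6, 67.7 and 45.7 CPM per kilobase, then *Kcnk6*, a tandem-pore channel related to *Kcnk1*, at 24.8, 28.0 and 25.8, and *Kcnk5* at 22.4, 34.4 and 19.8. *Clcn7* had 16.4, 16.4 and 15.5 and *Clcn3* had 16.4, 16.0 and 15.7. The tandem-pore gene *Kcnk12* had 13.4, 13.7 and 16.9. The endosomal exchanger gene *Clcn5* (9.42, 11.2 and 6.78), the silent potassium subunit gene *Kcns3* (8.66, 6.81 and 10.2), *Clcn4-2* (7.36, 6.47 and 6.44) and the plasma membrane chloride channel gene *Clcn2* (4.19, 5.17 and 4.64) completed the leading 10. None of these genes was called between blastocyst groups, although *Kcnk5*, *Clcn5* and *Cacnb3* were highest in the eKO library and lowest with rLif. *Clcn2* shares exon bases with *Fam131a* and its counts are uncertain.

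**Figure D1:**
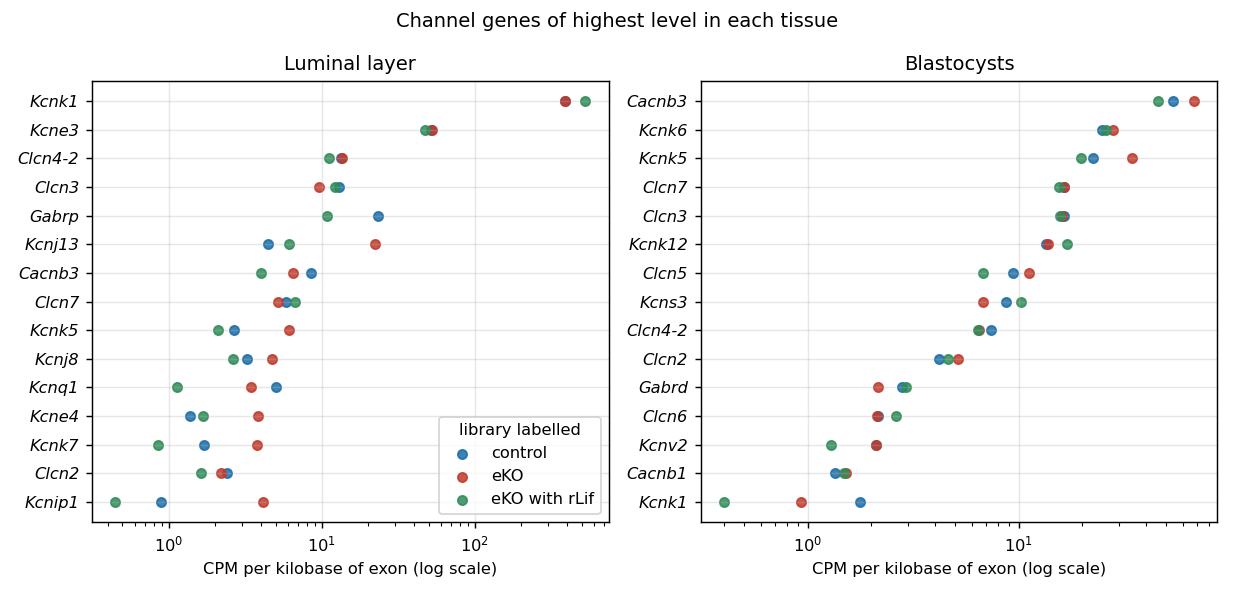
The 15 channel genes of highest mean level among members reported by name, in the luminal layer (left) and in blastocysts (right). Levels are in CPM per kilobase of exon on a log scale, with 1 point per library and colours for the labelled group. *Kcnk1* stands above every other luminal gene at 389 to 527. *Gabrp* has no point for the library labelled eKO, where its level was 0 and cannot be drawn on a log axis.

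For comparisons within a tissue, a gene was called when the exact 95% interval of the ratio of its scaled counts in 2 libraries lay wholly beyond a 2-fold difference. Between the luminal libraries labelled eKO and control, 28 of the 91 channel genes tested were called (30.8%), against 17.2% of all genes tested. Of these, 17 were higher in eKO (all genes, 8.08%) and 11 were lower (all genes, 9.15%). The median log2 ratio of the members was 0.07, and of all genes 0.01. Among members and genes with at least 50 counts, 18 of 56 members were called, against 16.2% of genes.

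By role, 11 of 23 voltage-gated potassium pore genes were called (7 higher, 4 lower) and 4 of 7 calcium pore genes (4 higher, 0 lower). Of 10 GABA-A subunit genes, 4 were called (1 higher, 3 lower). Calls were fewer among inward rectifiers (2 of 7), potassium auxiliary subunits (3 of 14), calcium auxiliary subunits (2 of 10), calcium-activated potassium channels (1 of 6) and tandem-pore channels (1 of 9). None of the 5 ClC genes tested was called. The median log2 ratio was 1.48 for the calcium pore genes and -1.10 for the GABA-A subunits.

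*Gabrp* had the largest decrease of any channel gene. This subunit, known from the uterus and other reproductive tissues, had 1925, 0 and 918 luminal counts. It was high in control, intermediate with rLif and at 0 in the deepest of the 3 libraries. Against a floor of 3 counts it was at least 730-fold lower in eKO than in control and at least 338-fold higher with rLif than in eKO. With rLif it stood at a log2 ratio of -1.11 against control, with an interval that touched the limit, and was not called.

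The other GABA-A subunits were rare. *Gabrr2*, a rho subunit, had 34, 0 and 6 luminal counts and *Gabre*, the epsilon subunit, had 12, 0 and 18. Like *Gabrp*, both were at 0 only in the library labelled eKO. They were at least 12.9-fold and 4.55-fold lower there than in control. *Gabrd*, the delta subunit of receptors outside synapses, went the other way with 1, 24 and 35 counts (log2 ratio of eKO to control 4.40, interval 1.78 to 9.76). *Gabra4* (62, 35 and 42) and *Gabrb1* (35, 16 and 9) had log2 ratios of -1.01 and -1.32 whose intervals crossed the limit, as did *Gabrb2* (10, 22 and 6). The rho subunits *Gabrr1* (0, 2 and 8) and *Gabrr3* (0, 1 and 9) were at the lower edge of detection.

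Potassium channel genes lower in the library labelled eKO included epithelial ones. *Kcnj1*, the inward rectifier through which the kidney secretes potassium, was counted 109 times in the library labelled control and 0 times in both others, at least 41.3-fold lower in eKO. *Kcne2*, an auxiliary subunit that partners Kcnq1 in gastric acid secretion, had 67, 2 and 26 counts (log2 ratio -5.25, interval -8.33 to -3.34). *Kcnc2*, a fast delayed rectifier, had 320, 26 and 70 counts and a ratio of -3.81 (-4.44 to -3.23). The library labelled eKO was lowest, or at 0 together with the rLif library, in all 3 of these genes.

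*Kcnn4*, the calcium-activated channel that drives secretion in many epithelia, had 112, 41 and 32 counts (log2 ratio -1.64, interval -2.19 to -1.11). *Kcng4*, a silent subunit that modifies other pores, had 132, 48 and 6 and a ratio of -1.65 (-2.15 to -1.16). Both were highest in the library labelled control and lowest with rLif. The lymphocyte channel gene *Kcna3* (18, 0 and 0) and the calcium channel subunit gene *Cacna2d2* (9, 0 and 2) were also called. Their counts were low in every library.

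Among the 17 higher members, *Kcnc4*, which encodes a fast-inactivating voltage-gated potassium channel, had the largest interval bound. Its counts were 13, 326 and 2. The log2 ratio of eKO to control was 4.46 (3.67 to 5.39), and that of rLif to eKO was -7.21 (-10.26 to -5.34). It was thus high in a single library of the 3. *Kcnj13* had 152, 862 and 215 counts and a ratio of 2.32 (2.07 to 2.58). *Kcnip1*, a calcium-binding subunit of Kcnd channels, had 62, 323 and 32 counts and a ratio of 2.20 (1.80 to 2.61). Both were also highest in the library labelled eKO, and neither was called with rLif against control.

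*Kcnd2*, a pore to which such subunits bind, had 16, 113 and 116 counts (log2 ratio 2.63, interval 1.87 to 3.49). Between the libraries with rLif and without it, its ratio was 0.18 (-0.21 to 0.57). *Kcnh1* had 4, 32 and 19 counts and *Kcnh2*, a channel of cardiac repolarization, had 0, 12 and 30. The silent subunit gene *Kcnv2* (0, 18 and 10) and the tandem-pore gene *Kcnk12* (0, 15 and 0) were at least 5.27-fold and 4.4-fold higher in eKO than in control. *Kcne4*, an inhibitory subunit of voltage-gated channels, had 86, 272 and 108 counts and a ratio of 1.48 (1.12 to 1.84). The remaining potassium calls, named to complete the list and outside the naming rule, were *Kcna6* (2, 20 and 14) and *Kcnh3* (10, 47 and 21), which shares exon bases with *Mcrs1* (953, 1249 and 1074 counts). *Kcnh3* was no longer called when libraries were scaled by total counts.

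All 4 calcium pore genes that were called were higher in the library labelled eKO. *Cacna1g* had 43, 179 and 54 counts (log2 ratio 1.87, interval 1.38 to 2.39) and *Cacna1h* had 8, 47 and 4 (2.37, 1.27 to 3.66). Both encode T-type channels, which open at small depolarizations. *Cacna1d*, an L-type pore, had 115, 364 and 237 counts (1.48, 1.17 to 1.79), and *Cacna1e*, an R-type pore, had 0, 21 and 0. The beta subunit gene *Cacnb4* had 210, 720 and 210 counts and a ratio of 1.59 (1.37 to 1.82). None of these 5 genes was called with rLif against control. *Cacna1d* shares exon bases with *Chdh* on the other strand (1971, 3375 and 2049 counts) and *Cacna1h* with *Tpsg1* (0, 0 and 0), so the *Cacna1d* counts in particular are uncertain.

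**Figure D2:**
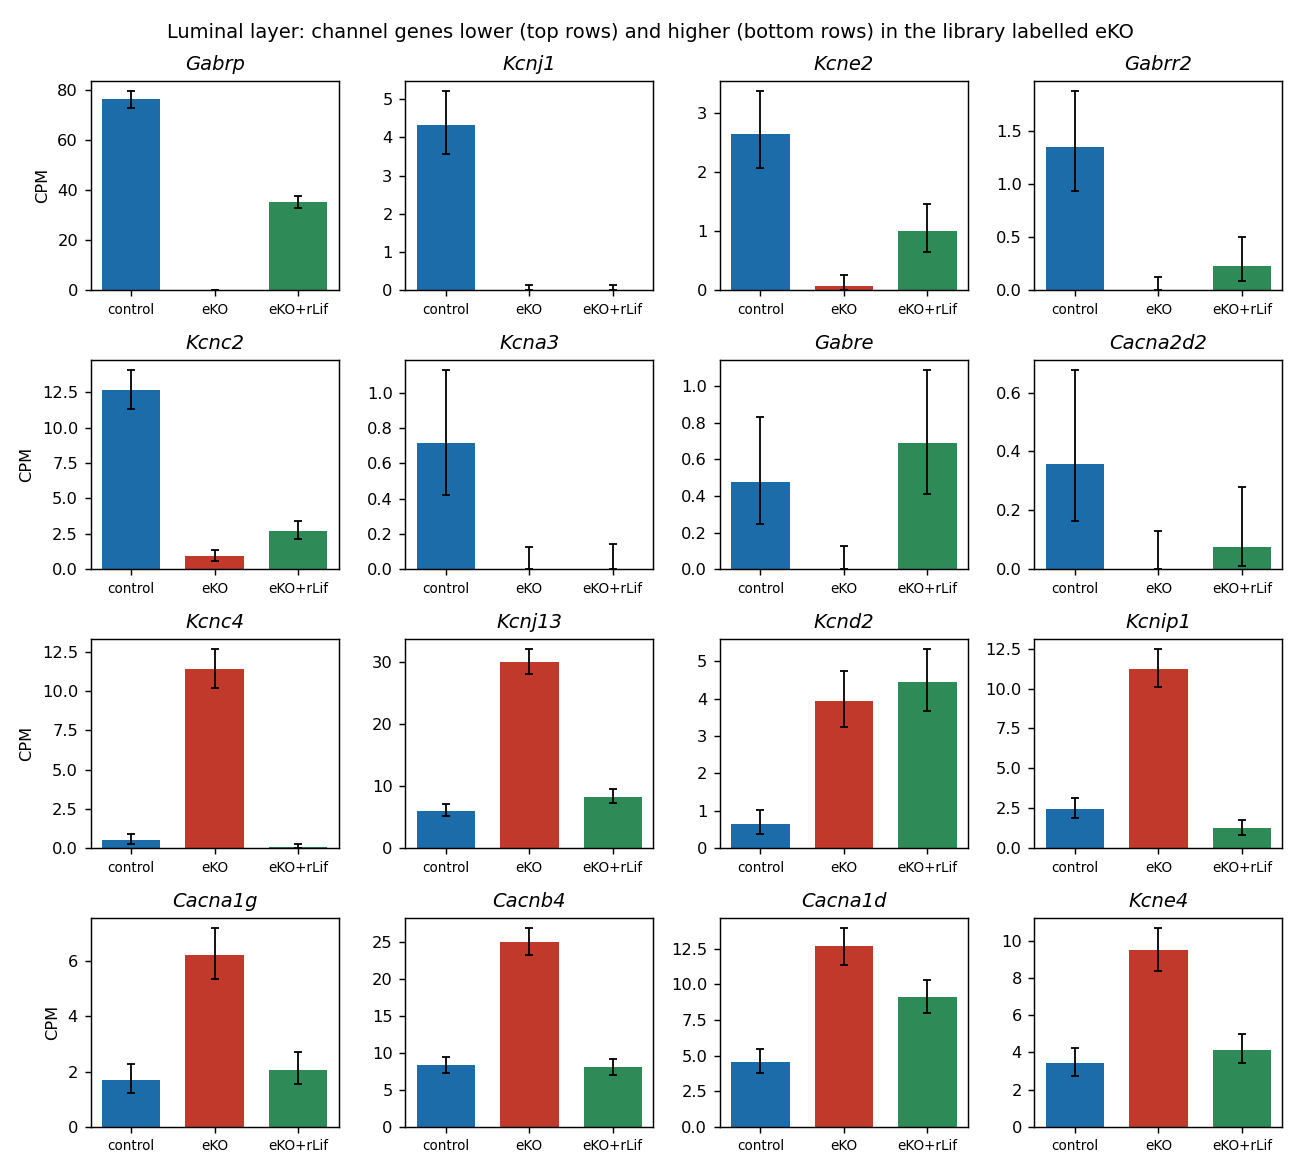
CPM in the 3 luminal libraries, with exact 95% Poisson intervals of counting error, for 8 channel genes lower in eKO than in control (top) and for those higher with at least 100 counts in eKO (bottom), in order of interval bound. Axes start at 0 and differ between panels. *Gabrp* stands at 0 in eKO and between eKO and control with rLif, while *Kcnc4* is high in eKO alone.

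Promoters are shown for 4 of the genes called in the luminal layer because Lif acts through Stat3, a factor that binds TTCNNNGAA. This motif reads the same on both strands. The 4 were chosen after their values were seen. By interval bound *Gabrp* had the largest decrease in eKO against control, and *Kcnc4* and *Kcnj13* the largest increases among members with counts in all 3 libraries. *Kcnip1* is the member called there whose window holds the motif. Windows of RefSeq from 250 bases before to 50 bases after a transcript start (GRCm38.p6) were found for 109 of the 145 members. Below are the 250 bases before the start on the gene's own strand, 5′ to 3′, with any TTCNNNGAA in capitals. They are *Gabrp* (chr11:33578958-33579207, minus strand), *Kcnj13* (chr1:87394730-87394979, minus), *Kcnc4* (chr3:107458899-107459148, minus) and the third of the *Kcnip1* starts, inside the gene (chr11:33680683-33680932, minus).
Gabrp: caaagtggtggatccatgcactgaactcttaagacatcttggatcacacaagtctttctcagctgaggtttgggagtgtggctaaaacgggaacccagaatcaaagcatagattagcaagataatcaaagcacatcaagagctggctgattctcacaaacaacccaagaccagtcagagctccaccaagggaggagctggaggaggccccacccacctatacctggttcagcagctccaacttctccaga
Kcnj13: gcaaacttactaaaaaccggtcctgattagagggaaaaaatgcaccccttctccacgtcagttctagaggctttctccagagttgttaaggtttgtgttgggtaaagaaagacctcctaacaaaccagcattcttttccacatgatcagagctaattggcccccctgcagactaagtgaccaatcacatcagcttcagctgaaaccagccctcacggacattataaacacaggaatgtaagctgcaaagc
Kcnc4: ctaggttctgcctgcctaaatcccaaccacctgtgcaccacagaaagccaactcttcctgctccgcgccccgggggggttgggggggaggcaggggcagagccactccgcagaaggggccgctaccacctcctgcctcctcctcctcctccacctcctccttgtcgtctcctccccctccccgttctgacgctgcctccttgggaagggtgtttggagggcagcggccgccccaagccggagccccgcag
Kcnip1: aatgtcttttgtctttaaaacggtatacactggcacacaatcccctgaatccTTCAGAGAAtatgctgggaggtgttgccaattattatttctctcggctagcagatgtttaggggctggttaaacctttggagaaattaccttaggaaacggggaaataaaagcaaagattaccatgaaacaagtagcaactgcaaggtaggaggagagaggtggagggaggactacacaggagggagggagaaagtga
The first 3 hold no such motif, in these 250 bases or in the 50 that follow. The *Kcnip1* stretch holds it once, with its first base at position -198 from that start. The other 2 *Kcnip1* windows lack it, and gene counts do not tell which start was used. The bases shown are 49.2% G or C in *Gabrp*, 45.2% in *Kcnj13*, 68.0% in *Kcnc4* and 44.0% in *Kcnip1*.

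Over all genes, 8.3% of 32851 windows hold the motif, and 9.55% of 27025 genes have it in at least 1 window. Of the 109 members with a window, 14 did (12.8%). Among members called between the luminal libraries labelled eKO and control, it was found in 1 of 12 higher members with a window, *Kcnip1*, and in 0 of 10 lower ones. A match is a string of letters and not a measured site. *Gabrp* and *Kcnip1* are neighbours on chromosome 11, 50383 bases apart on the same strand, and differed in opposite directions between these libraries. *Kcnmb1*, a subunit of calcium-activated channels that lies within *Kcnip1*, had 31, 37 and 24 luminal counts and was not called.

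Between the luminal libraries labelled eKO with rLif and control, 23 of 91 members were called (25.3%), against 9.16% of all genes. Of these, 10 were higher (all genes, 4.12%) and 13 lower (all genes, 5.04%). With libraries scaled by total counts in place of TMM, the split was 7 higher and 16 lower. The median log2 ratio of the members was -0.27, and of all genes 0.01. With at least 50 counts, 12 of 56 members were called, against 7.61% of genes. Of the 23 voltage-gated potassium pore genes tested, 13 were called, while no potassium auxiliary subunit (0 of 14), calcium pore gene (0 of 7) or ClC gene (0 of 5) was called.

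*Kcnq1*, the potassium pore that Kcne3 and Kcne2 modify, was the voltage-gated potassium gene of highest luminal level and was lowest with rLif. It had 388, 303 and 90 counts, and log2 ratios of -2.15 against control (-2.50 to -1.82) and -1.61 against eKO (-1.97 to -1.27). Its exons share bases with the antisense transcript *Kcnq1ot1* (2769, 5819 and 2819 counts). Whether the counting used strand is not given in the sources used here, so reads of the 2 cannot be told apart.

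Further members lower with rLif than in control were *Kcng4* (ratio -4.50, -5.98 to -3.34), *Kcnc2* (-2.24, -2.63 to -1.86), *Kcnn4* (-1.85, -2.47 to -1.27) and *Gabrr2* (-2.55, -4.09 to -1.28). *Kcnj1* was at least 37.5-fold lower, and *Kcna3* was also at 0. The values of these genes in eKO against control stand above, and both comparisons share the control library. *Kcnk6* (26, 35 and 4), the glial inward rectifier gene *Kcnj10* (16, 9 and 0) and the tandem-pore gene *Kcnk13* (14, 6 and 0) were lower as well.

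Several members were highest with rLif. *Kcns3* had 2, 0 and 36 luminal counts, *Kcng3*, another silent subunit, had 35, 35 and 116, and *Cacnb2*, the main beta subunit of heart calcium channels, had 6, 32 and 53. Their log2 ratios against control were 4.13 (2.17 to 7.23), 1.68 (1.13 to 2.27) and 3.10 (1.88 to 4.61). The inward rectifier gene *Kcnj12* (2, 4 and 27), the M-channel gene *Kcnq5* (1, 2 and 18) and *Cacng7*, which also modulates glutamate receptors (1, 4 and 14), were rare elsewhere. *Kcnd2* had a ratio of 2.81 against control (2.05 to 3.67) and *Gabrd* of 5.08 (2.51 to 10.43), and *Kcnh2* and *Kcnv2* were at least 9.7-fold and 3.23-fold higher. *Kcnv2* was no longer called when libraries were scaled by total counts, nor were *Kcng3* and *Cacng7*.

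Between the luminal libraries labelled eKO with rLif and eKO, 21 of 91 members were called (23.1%), against 15.6% of all genes. Of these, 7 were higher with rLif (all genes, 7.88%) and 14 lower (all genes, 7.77%). The median log2 ratio of the members was -0.36, and of all genes -0.01. With at least 50 counts, 14 of 56 members were called, against 14.2% of genes. The 7 higher were *Gabrp*, *Gabre*, *Kcne2* (log2 ratio 3.84, 1.84 to 6.96), *Kcns3*, *Kcng3* (1.87, 1.31 to 2.46), *Kcnj12* (2.90, 1.38 to 4.87) and *Kcnq5* (3.31, 1.25 to 6.46).

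Tandem-pore potassium channels took 5 of the 14 decreases, with 5 of 9 tested called and a median log2 ratio of -2.13. *Kcnk5* had 226, 595 and 185 luminal counts (rLif against eKO -1.54, -1.79 to -1.30) and *Kcnk7* had 48, 121 and 25 (-2.13, -2.82 to -1.50). In both, the library labelled eKO was highest, but the ratio of eKO against control was not called for *Kcnk5* (1.21, 0.99 to 1.44) or *Kcnk7* (1.15, 0.65 to 1.66). *Kcnk6* had a ratio of -2.99 (-4.94 to -1.50). *Kcnk12* and the mechanosensitive channel gene *Kcnk4* (4, 18 and 0) were at 0 with rLif. *Kcnk1*, the most abundant, had a ratio of 0.43 (0.41 to 0.46) and was not called.

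The other decreases were *Kcnc4*, *Kcnip1* (-3.19, -3.77 to -2.67), *Kcnj13* (-1.86, -2.08 to -1.64), *Kcng4* (-2.86, -4.37 to -1.63), *Kcnq1*, *Cacna1e*, *Cacna1g* (-1.59, -2.05 to -1.14), *Cacna1h* (-3.41, -5.35 to -1.96) and *Cacnb4* (-1.64, -1.86 to -1.41). *Kcng4* and *Kcnq1* were lower with rLif than in both other libraries. The other 7 were highest in the library labelled eKO.

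**Figure D3:**
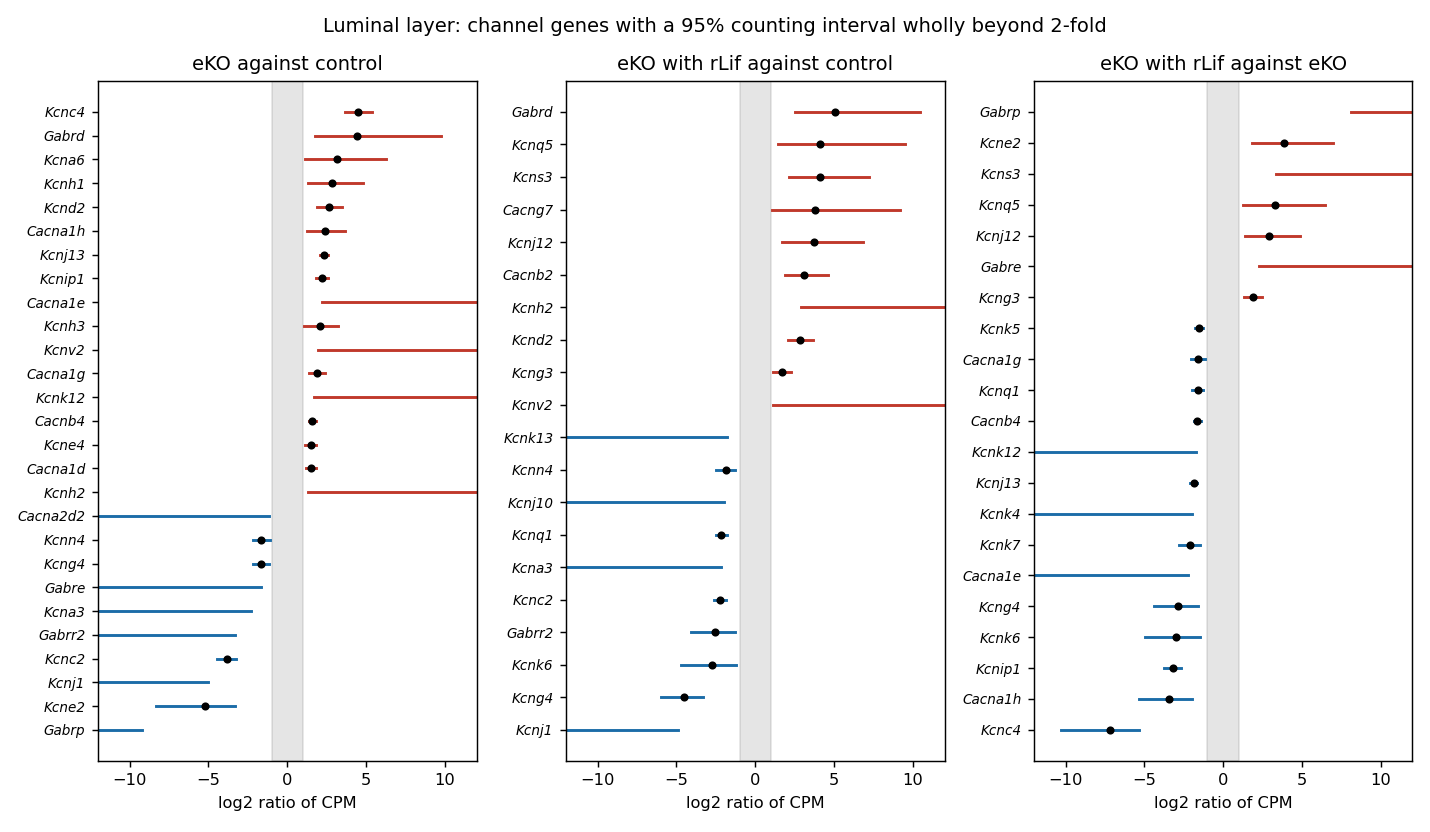
Log2 ratios of CPM for channel genes called in each luminal comparison, with lines for exact 95% intervals, points for the ratio and a grey band within 2-fold. Lines that run to the edge of a panel belong to genes with 0 counts in a library of the pair, which have no point. *Gabrp* leads the decreases on the left and the increases on the right.

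Cell type markers were examined beside these calls. In the luminal libraries all 7 luminal epithelial markers were tested and summed to 4819, 6606 and 4894 CPM. Blastocyst markers were mixed there. *Pou5f1*, *Nanog* and *Gata4* were at 0. *Cdx2* (0, 15 and 0 counts), *Sox2* (8, 19 and 0) and *Gata6* (3, 21 and 3) peaked under the eKO label, as *Kcnk12* did (0, 15 and 0). *Gata3* (22, 4 and 11), *Tfap2c* (124, 7 and 107) and *Klf4* (900, 520 and 783) were lowest under that label. *Eomes* (65, 60 and 47) and *Elf5* (75, 76 and 5) were lowest with rLif. The part of embryo RNA in the luminal counts was not tested. Stromal markers (7 of 7 tested) summed to 692, 1084 and 728 CPM. In the library labelled eKO, 1 was higher than in control and 0 lower (all genes, 8.08% and 9.15%). The 1 called was *Col3a1* (227, 501 and 320 CPM). *Pdgfra* (34.1, 35.4 and 24.3) hardly differed between control and eKO, and *Hand2* (15.8, 14.3 and 21.8) was lowest under the eKO label. The part of stromal cells in the members that were highest in that library was not tested. Smooth muscle markers (6 of 6) summed to 70.4, 50.5 and 31.4 CPM, with 4 of 6 called lower with rLif than in control (all genes, 5.04%). *Kcnn4* and *Kcng4* also stood in the order control, eKO, rLif, and the part of muscle in their values was not tested.

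Endothelial markers (5 of 5) summed to 46, 66.4 and 91.2 CPM and immune markers (4 of 5) to 56.6, 56.3 and 93.9. With rLif against control, 2 endothelial markers were called higher (all genes, 4.12%), *Cdh5* and *Tek*, and 0 immune markers were called. *Tek* had 4.91, 6.9 and 34.5 CPM, while *Pecam1* (13.2, 10.6 and 10.6) was highest in control. Glandular markers (4 of 6) summed to 7.17, 4.6 and 18.1, in the order in which *Gabre* (12, 0 and 18) stood. Nerve markers (2 of 6) summed to 1.86, 1.53 and 0.96, with *Tubb3* and *Snap25* at 0. The part of these cells in the calls was not tested. In such bulk samples, fewer cells of a type and less RNA per cell cannot be told apart.

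Other genes of GABA and chloride handling were also called. Of 15 genes that make, move or anchor GABA and its receptors, 10 were tested in the luminal layer, with 1 higher and 2 lower in eKO against control (all genes, 8.08% and 9.15%). *Gad1*, which makes GABA, was at 0 in all 6 libraries, and *Gad2* had 2 counts in the luminal library labelled eKO and 0 elsewhere. *Gabarapl1*, a receptor-associated protein of autophagy, had 7007, 1147 and 4062 counts (log2 ratio for eKO against control -2.80), and *Gabbr1*, a subunit of the G protein-coupled GABA-B receptor, had 659, 312 and 1220 (-1.26). Both were lowest in the library labelled eKO, as *Gabrp* was. The third call, the GABA transporter gene *Slc6a13*, had 1, 17 and 4 counts and was higher there.

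Of 19 genes for chloride gradients and other anion channels, 15 were tested, with 1 higher and 3 lower in eKO against control (all genes, 8.08% and 9.15%). With rLif against eKO, 4 were higher and 0 lower (all genes, 7.88% and 7.77%). *Slc26a6*, an anion exchanger, had 1202, 100 and 4115 luminal counts (log2 ratio -3.77 for eKO against control, 5.50 for rLif against eKO). *Slc12a2*, the cotransporter that loads epithelial cells with chloride, had 6122, 4319 and 11053 (1.50 for rLif against eKO). *Ano1*, a calcium-activated chloride channel, had 322, 1050 and 653 (1.52 for eKO against control). Of 15 sodium-potassium pump genes, 12 were tested, with 1 higher and 1 lower, a share near the 17.2% of all genes called. The higher, *Fxyd4*, a regulator of the pump, had 11039, 136115 and 29620 counts (3.44).

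In blastocysts few channel genes differed. Between eKO and control, 2 of 62 members tested were called (3.23%), against 3.15% of all genes, both higher in eKO (all genes, 1.29% higher and 1.86% lower). Between eKO with rLif and control, 5 of 62 were called (8.06%), against 4.94%, with 3 higher (all genes, 0.948%) and 2 lower (all genes, 3.99%). Between eKO with rLif and eKO, 1 of 62 was called (1.61%), against 3.75%, and it was lower (all genes, 0.914% higher and 2.83% lower). Read against all genes, these shares give no result particular to the members. The median log2 ratios of the members were 0.18, -0.01 and -0.02, against -0.00, -0.01 and -0.01 for all genes.

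The blastocyst calls were rare genes. *Cacna1f*, the calcium pore of photoreceptors, had 2, 23 and 7 counts (3.49, 1.47 to 6.62 for eKO against control). It stood out in the eKO library alone. With rLif against control, *Kcna1* (0, 6 and 16), *Kcnc4* (3, 12 and 31) and *Kcnb2* (0, 2 and 10), all voltage-gated potassium pores, were higher. The inward rectifier gene *Kcnj14* (31, 18 and 4) and *Kcnk1* (78, 42 and 18) were lower, *Kcnk1* by a ratio of -2.14 (-2.97 to -1.39). In all 5 the eKO library lay between the others. Some genes on the lists of uterine markers stood in the same order as *Kcnk1*. *Krt19* had 1401, 241 and 108 blastocyst counts, *Hoxa10* 48, 17 and 6, *Dcn* 164, 84 and 51 and *Col3a1* 122, 60 and 28. The other luminal epithelial markers were not called between these libraries. *Lpar3* (12, 27 and 26) and *Vim* (191, 72 and 100) did not stand in that order. The part of uterine cells in the *Kcnk1* counts was not tested.

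Markers of trophectoderm (5 of 5 tested) summed to 2747, 2985 and 3037 CPM in blastocysts and to 11.3, 5.64 and 6.53 in the luminal layer, and stromal markers (6 of 7) to 153, 159 and 150 in blastocysts. Most of the stromal sum was *Pdgfra* (2354, 2845 and 2718 counts), which is also on the primitive endoderm list. Of the stromal markers 1 was lower in eKO than in control (all genes, 1.86%) and 3 were lower with rLif than in control (all genes, 3.99%). Of the GABA handling genes, 9 were tested there and 1 was higher in eKO than in control (all genes, 1.29%). This was *Abat*, which breaks GABA down, with 208, 516 and 194 counts (log2 ratio 1.27). It was lower again with rLif against eKO (-1.40), the 1 call of the list there (all genes lower, 2.83%). *Aldh5a1*, with 66, 27 and 15 counts, was the 1 gene of the list lower with rLif than in control (-2.17, all genes lower, 3.99%). In the chloride list 2 of 17 tested were lower in eKO (all genes, 1.86%), *Ano1* among them with 43, 6 and 30 counts (-2.88), and in the pump list 0 of 10 were called between eKO and control (all genes, 3.15%).

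Several genes called in the luminal layer had few counts in blastocysts. *Gabrp* had 22, 21 and 17 blastocyst counts, *Kcnj13* had 1, 8 and 12, *Kcne2* and *Kcnip1* had 0 in all 3 libraries, and *Kcnj1* and *Kcnc2* also had 0. The subunit *Gabrd*, rare in the luminal layer, had 100, 79 and 107 counts in blastocysts and was the GABA-A subunit of highest level there, at 2.79, 2.15 and 2.93 CPM per kilobase. Among the other roles, *Kcnn2* led the calcium-activated potassium channels with 38, 24 and 37 counts and *Kcnip2* the auxiliary potassium subunits with 46, 39 and 30. *Kcnn2* shares exon bases with a gene on the other strand that had 0 to 2 blastocyst counts.

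The tissues were compared with CPM scaled over all 6 libraries, which is another scale than the one within each tissue. A gene was set apart when its lowest library in 1 tissue was over 2-fold above its highest in the other. Of 108 members with at least 10 counts, 54 were set apart (50%), against 46.1% of all genes. The luminal layer was higher for 35 (all genes, 24.0%) and blastocysts for 19 (all genes, 22.2%). Potassium auxiliary subunits were set apart in 57.1% of 14 tested, every time towards the luminal layer. ClC genes were set apart in 42.9% of 7 tested, every time towards blastocysts. Without the luminal library labelled eKO, a choice made after seeing the data, 61 of 102 members tested were set apart. Of these, 41 were higher in the luminal layer and 20 in blastocysts. Leaving out a library makes the rule easier to meet for any gene, and the share of all genes was not computed for this setting.

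*Kcnk1* had the widest gap. It lay between 941 and 1264 CPM in the luminal layer and between 0.879 and 3.87 in blastocysts, so that the nearest libraries were 243-fold apart. *Kcne3* followed with 84.3 to 94.7 against 0.298 to 1.09 CPM, 77.2-fold apart. Other wide gaps towards the luminal layer were those of *Kcnj8* (20-fold), *Kcnq1* (18.1-fold), *Kcnj13* (10.8-fold), *Cacnb4* (9.38-fold) and *Kcnb2*, a delayed rectifier pore (9.06-fold). *Kcne4* had 0 counts in every blastocyst library and was at least 24-fold higher in the luminal layer. The groups did not overlap in any of these genes, by the rule that chose them.

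Towards blastocysts, *Kcnk6* lay between 96 and 111 CPM against 0.16 to 1.28 in the luminal layer, 75-fold apart. *Kcnk12* (45.2-fold), *Kcnn2* (32.6-fold), *Clcn6*, a late endosomal exchanger (23.7-fold), the silent subunit gene *Kcnf1* (18.5-fold), *Kcns3* (14-fold), *Clcn5* (10.6-fold) and *Kcnv2* (9.42-fold) had the next gaps. Tandem-pore channels were thus found on both sides, *Kcnk1*, *Kcnk3* and *Kcnk7* in the luminal layer and *Kcnk5*, *Kcnk6* and *Kcnk12* in blastocysts. *Gabrp* was not set apart, because its luminal count was 0 in the library labelled eKO. Of the 54, 5 had a library of 3 counts or fewer in the higher tissue (*Kcne1l*, *Kcne2*, *Cacng7*, *Kcnj15* and *Kcnh4*).

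**Figure D4:**
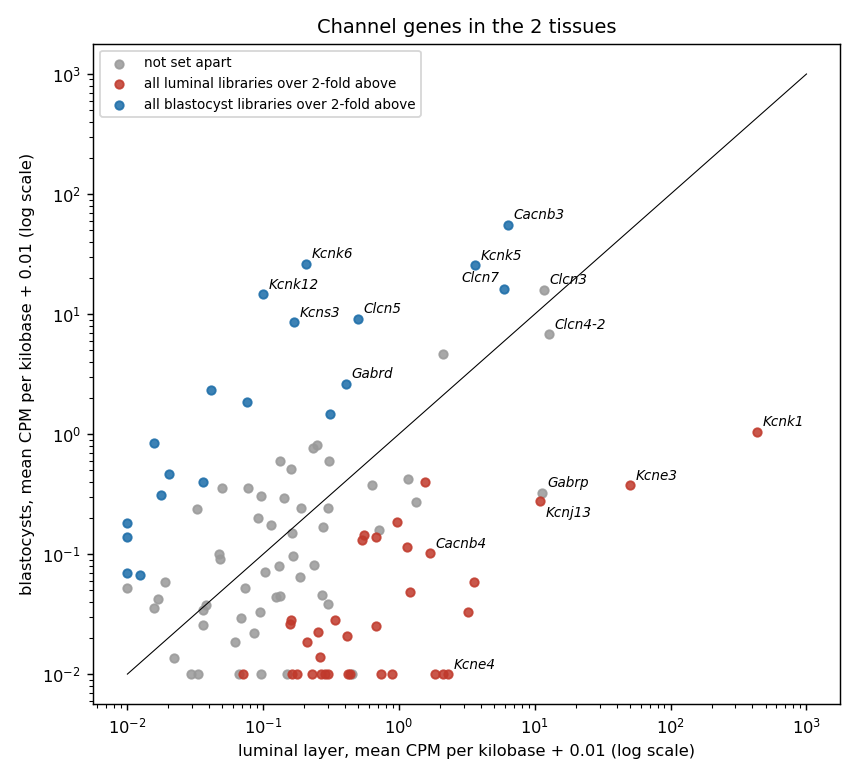
Mean CPM per kilobase of exon over the 3 libraries of the luminal layer (horizontal) and of blastocysts (vertical) for 108 channel genes, on log scales with a small constant added so that 0 can be drawn. Red genes were higher in every luminal library and blue genes in every blastocyst library, by over 2-fold. *Kcnk1* lies far to the right, and *Kcnk6*, *Kcnk12* and *Kcns3* lie at the upper left.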

How the data were processed

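Libraries were made by the authors with SMART-seq v4 from RNA pooled within each group. Paired-end reads were aligned to GRCm38/mm10 with HISAT2 and counted per gene with featureCounts (Subread 2.0.0), per the study's methods and the submitters' processing notes. The study's methods describe length-normalized read values, but the deposited values are whole-number counts with a different total in each library, and were used as raw counts. The annotation release, the strand setting and the handling of reads that map to several places are not given in the sources used here. Of 23420 genes, 2814 share exon bases with another gene, 12 of them channel genes.

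TMM scaling (edgeR 4.0.16, run in R 4.3.3) was applied within each tissue, or over 6 libraries to compare tissues. Genes with at least 10 counts over the 3 libraries of a tissue were tested against a 2-fold limit with exact 95% Clopper-Pearson intervals (scipy 1.17.1). These cover counting error only. PCR reads without molecular identifiers are not independent molecules, so the intervals can be too narrow even for that. Pools of animals vary by more than counting error, so a call compares 2 libraries and not 2 conditions. Where a library was at 0, the call used the exact interval of that count. A floor of 3 counts entered only the folds given as at least a value. The rule was also run on simulated counts as a check of the code. The only criterion set there used counts with counting error alone, as the interval assumes. It therefore does not show how often calls fail in pools of animals. Levels used the exon lengths in the deposited tables. Of the members, 144 were found in GENCODE M21 as protein-coding genes, and *Clcn4-2* was not found under that symbol. Promoter windows were those of RefSeq, and 36 members had none.

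The members, roles, gene lists and the naming rule were chosen with earlier results of these data known. The rule named up to 12 members per direction for each luminal comparison and up to 6 for each blastocyst comparison by interval bound, the 10 of highest level in each tissue, the highest of each role, GABA-A subunits with at least 10 counts in a tissue, and up to 8 per direction by gap between tissues. Alternatives were other scalings (DESeq2 1.42.0 size factors, total counts), other count filters, a log2 limit of 2, the ratio itself, edgeR's exact test with a dispersion fixed at 0.1, and leaving out genes that share exon bases. Some members are counted but not reported by name here.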

Additional observations from a re-analysis of the deposited data

How the results depend on the processing

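No paired analysis was possible because each group is 1 library. The direction of every named ratio that was called held under DESeq2 size factors and total counts, and ratios that were not called were not recomputed. With total counts 4 luminal members were no longer called, *Kcnh3* in eKO against control (log2 ratio 1.98) and *Kcng3* (1.51), *Cacng7* (3.59) and *Kcnv2* (lower bound 0.94) in rLif against control.
The number of luminal members called between eKO and control, 28, became 18 with at least 50 counts, 9 with a log2 limit of 2 and 17 with edgeR's exact test at a dispersion of 0.1. For rLif against control, 23 became 12, 9 and 11 in the same order. For rLif against eKO, 21 became 6 with the limit of 2, 33 when the ratio itself was used with at least 20 counts in the 2 libraries, and 12 with edgeR's exact test. In blastocysts, eKO against control gave 1 with at least 50 counts, 0 with the limit of 2, 5 by the ratio itself and 0 with edgeR's exact test, against 2. For rLif against control, 5 became 2, 0, 12 and 0. For rLif against eKO, 1 became 0 with the limit of 2, 14 by the ratio itself and 0 with edgeR's exact test. The filter and the stricter limit lower the number by construction, and otherwise the cause was not tested. Among these alternatives, the share of all genes was computed only for the luminal layer with at least 50 counts, as given above. The other numbers therefore do not show whether the difference between members and all genes held. The number set apart between tissues, 54, stayed between 40 and 61, with the share of all genes computed only for the main rule. The floor of 3 counts, used only for folds against a library at 0, was 0.104 to 0.119 CPM in luminal and 0.154 to 0.157 CPM in blastocyst libraries. Levels below it are uncertain.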
